A study of Homo sapiens with 4 samples.

Results

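The RasGAP genes examined here were RASA1, RASA2, RASA3, RASA4, RASAL1, RASAL2, RASAL3, NF1 and DAB2IP, together with SPRED2, chosen by gene name as the RASA and RASAL families, neurofibromin and its partners. They made up 10 of the 41507 genes and 58 of the 67765 transcripts in the expression tables. RNA was sequenced from SU-DHL-5 and Toledo cells, established human lines of diffuse large B-cell lymphoma (DLBCL), after treatment with the solvent DMSO or with 1 µM of JQ1, a compound that displaces the bromodomain and extra-terminal (BET) proteins from acetylated chromatin. The sample labels give 6 h of treatment, whereas the study's legend gives a longer time. Each line and treatment was represented by 1 sample, sequenced as 2 libraries, so values within a line have no test, and p-values come from 1 fit over both lines.

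RAS proteins signal while bound to GTP and fall silent once that GTP is hydrolysed, a reaction that RAS GTPase-activating proteins (RasGAPs) speed up. The family has several branches: RASA1, or p120GAP, which carries SH2 and SH3 domains and docks on phosphorylated receptors; the GAP1 branch with C2 and PH domains (RASA2, RASA3, RASA4 and RASAL1), of which RASA4 and RASAL1 respond to calcium; the SynGAP-like branch (DAB2IP, RASAL2 and RASAL3); and neurofibromin, the product of the tumor suppressor gene NF1. SPRED2 has no GAP domain itself and brings neurofibromin to the plasma membrane.

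Values are RPKM, reads per 1000 bases of gene and 1000000 mapped reads, and can therefore be compared between genes. The libraries held 14617583 to 17679831 mapped reads, of which 94.8% to 95.5% lay on genes. All 5 B cell markers examined were present, from 6.08 to 603 RPKM, and the epithelial markers EPCAM and KRT8 were at 0 in the 4 samples. The T cell, myeloid and fibroblast marker lists each summed to at most 2.51 RPKM in a sample. The summed B cell markers were lower after JQ1, at 913 and 623 RPKM in SU-DHL-5 and 910 and 615 RPKM in Toledo. MS4A1 and CD79A were lower in both lines, whereas CD79B was 226 and 227 RPKM in SU-DHL-5 and PAX5 was 16.4 and 19.9 RPKM in Toledo. The part of these markers in the results below was not tested. As RNA was measured in bulk, fewer cells with a transcript and less of it per cell cannot be told apart.

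After DMSO, the lines expressed different RasGAPs at nearly the same summed level. In SU-DHL-5, RASAL1 and RASA1 led, and RASA3, RASAL3, DAB2IP and RASAL2 were all below 0.1 RPKM on average. In Toledo, RASA1, RASA2 and RASA3 stood at similar levels and RASAL3, RASAL1, NF1 and RASA4 formed a second tier. Summed over the 9 genes with a GAP domain, the DMSO libraries read 23.7 and 23.8 RPKM in SU-DHL-5 and 20.9 and 24.4 RPKM in Toledo. Of this sum, RASAL1 made up 42.0% in the SU-DHL-5 sample and 10.5% in the Toledo sample. RASA3, RASAL3 and DAB2IP made up 0.412%, 0.116% and 0.101% of it in SU-DHL-5, against 17.9%, 11.1% and 3.31% in Toledo.

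**Figure D1:**
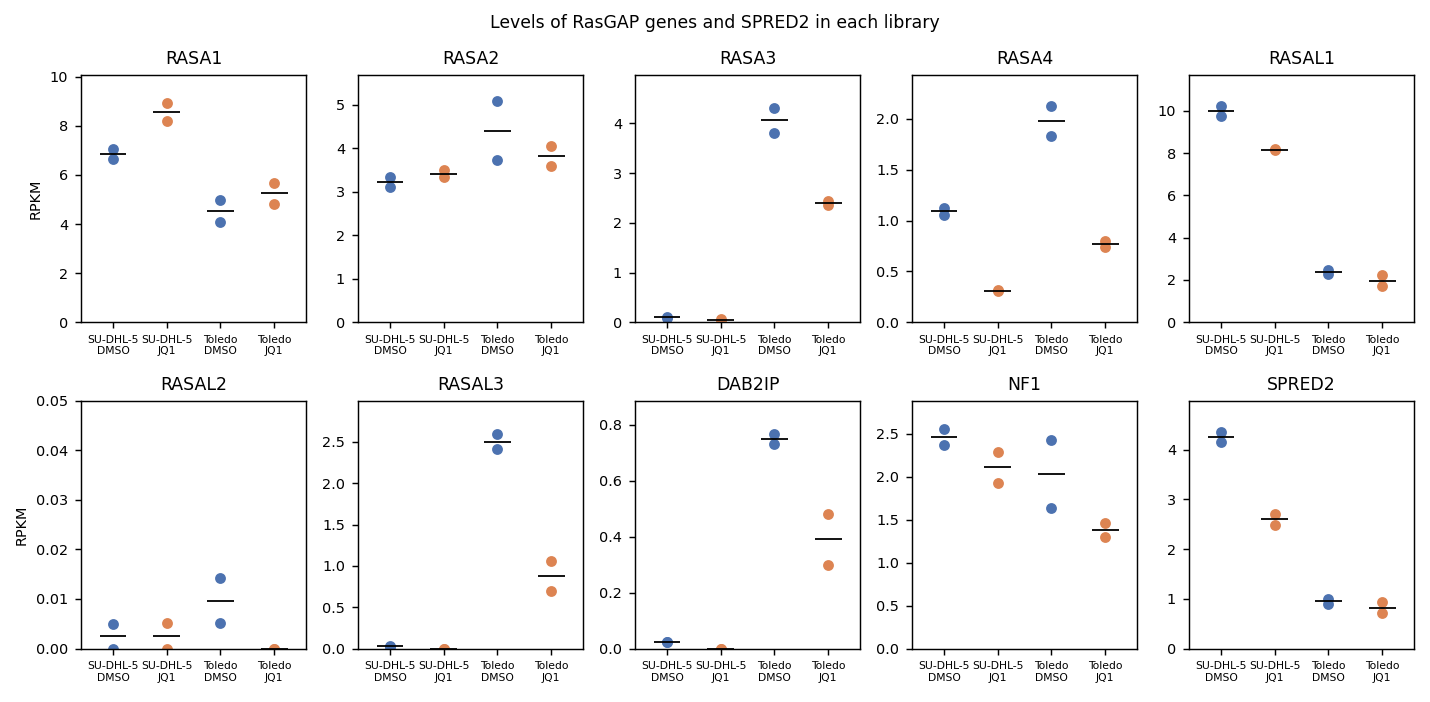
RPKM (y axis, own scale for each gene, from 0) of the 10 genes in the 8 libraries, by line and treatment (x axis). Points are libraries, blue for DMSO and orange for JQ1, and bars are the mean of the 2 libraries of a sample. RASA4 is lower after JQ1 in both lines, RASA3, RASAL3 and DAB2IP are nearly absent from SU-DHL-5, and the RASAL2 axis ends at 0.05 RPKM.

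After JQ1, the summed GAP genes read 22.4 and 22.8 RPKM in SU-DHL-5, where the sample mean decreased by 4.84%. In Toledo they read 17.2 and 16.5 RPKM and the mean decreased by 25.6%, and the JQ1 libraries lay below both DMSO libraries in each line. The make-up of the sum moved toward RASA1. RASA1 took 28.8% of the sum in SU-DHL-5 after DMSO and 37.9% after JQ1, and 20.0% and 31.2% in Toledo. In SU-DHL-5 the order of RASAL1 and RASA1 was exchanged, with RASA1 the highest of the genes after JQ1.

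**Figure D2:**
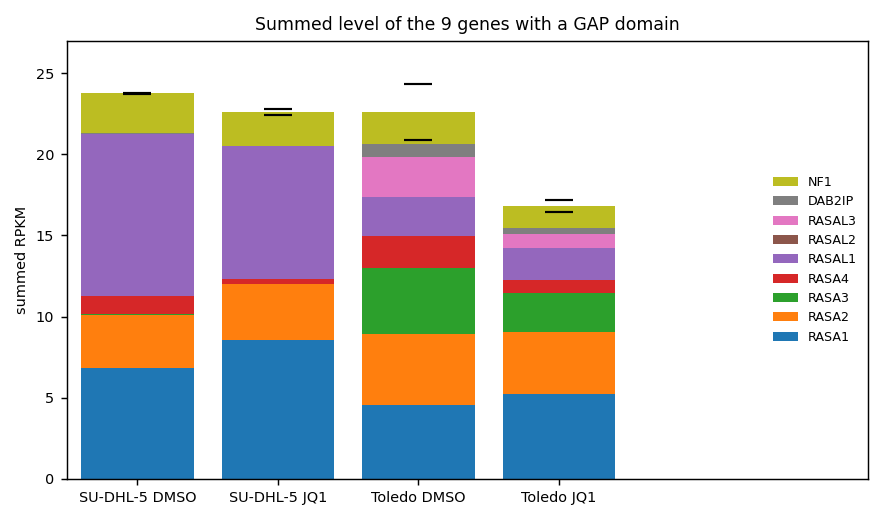
Summed RPKM (y axis) of the 9 genes with a GAP domain in each sample (x axis), stacked by gene, with the mean of 2 libraries as bar height and black ticks for each library's sum. The Toledo JQ1 bar is the lowest, at 16.8 RPKM, and holds a larger share of RASA1 than the Toledo DMSO bar.

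Genes were counted where both JQ1 libraries lay below, or both above, both DMSO libraries of the line, among genes of at least 0.1 RPKM averaged over the 4 libraries of that line. In SU-DHL-5, 6 of the 10 genes passed this filter, and 4 of them (RASA4, RASAL1, NF1 and SPRED2) were below DMSO, against 39.5% of the 10835 genes that passed. RASA1 was the 1 gene above DMSO, against 39.3% of all genes. In Toledo, 9 of the 10 genes passed, and 6 (RASA3, RASA4, RASAL1, RASAL3, NF1 and DAB2IP) were below DMSO, against 44.5% of 11408 genes. None was above DMSO there, against 27.7% of all genes. When the libraries were scaled to a common median ratio, RASA1 was counted above and RASAL1 no longer below. No share over all genes is given for that scaling. With 2 libraries a side, non-overlap was thus common across all genes.

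A JQ1/DMSO ratio under 0.5 was seen for RASA4 in SU-DHL-5, where 9.96% of genes were that low, and for RASA4 and RASAL3 in Toledo, where 12.6% were. No RasGAP gene or SPRED2 exceeded a ratio of 2, which 2.97% of genes did in SU-DHL-5 and 3.09% did in Toledo. The log2 ratios given for single genes were taken after adding 0.1 RPKM to both means, which understates the change of low genes. The median over the 10 genes was -0.30 in SU-DHL-5, beside -0.03 over all 13269 genes with a value, and -0.39 in Toledo, beside -0.10 over 14124 genes. With the filter of 0.1 RPKM, the median in SU-DHL-5 was -0.25 over 6 of the 10 genes, beside -0.002 over 10835 genes. In Toledo the filtered median was -0.52 over 9 of the 10 genes, beside -0.10 over 11408 genes. In the fit over both lines, with line as a block (limma, n = 2 lines), 1 of the 9 genes tested passed an adjusted p of 0.05. This was RASA4, lower after JQ1 with a log2 ratio of -1.40 ± 0.29 (SE) and an adjusted p of 0.00582, against 14.7% of 11623 genes called lower and 8.19% called higher. Adjusted p-values of the other 8 genes in the limma fit ran from 0.167 for RASAL3 to 0.847 for RASA2. The SE and p-values rest mostly on the variance of all genes tested, with 10.4 prior degrees of freedom against 1 residual. They do not give the spread of the single gene. Each gene is also given with a 95% exact binomial interval of its read ratio without that addition, which covers counting error only.

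**Figure D3:**
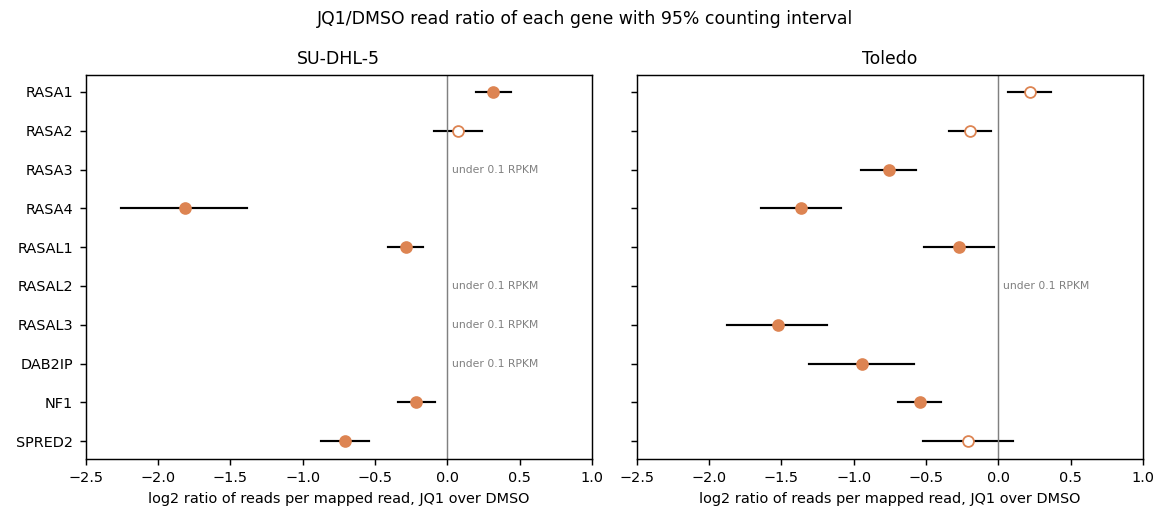
Log2 ratio of reads per mapped read, JQ1 over DMSO (x axis), of each gene (y axis) in SU-DHL-5 and Toledo, with both libraries of a sample summed. Lines are 95% counting intervals, filled points mark genes whose JQ1 and DMSO libraries did not overlap, open points those that did, and genes below 0.1 RPKM have no point. RASA4 is far below 0 in both lines and RASAL3 in Toledo.

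RASA1 (chr5:87268253-87391926, plus strand, GRCh38) was the highest of the 10 genes in both JQ1 samples. It read 6.65 and 7.04 RPKM after DMSO and 8.21 and 8.93 RPKM after JQ1 in SU-DHL-5. The JQ1 libraries were above both DMSO libraries, with a log2 ratio of 0.32 (interval 0.20 to 0.44, from 997 and 1184 reads). In Toledo it read 4.09 and 4.98 RPKM after DMSO and 5.66 and 4.83 RPKM after JQ1. Here the libraries overlapped, and the log2 ratio of 0.21 (interval 0.07 to 0.37) was 0.46 from the libraries numbered 1 alone and -0.04 from those numbered 2 alone. The last 15673 bases of RASA1 overlap CCNH on the other strand. The libraries came from a strand-keeping kit, but whether reads were counted by strand is not given in the sources used here. CCNH itself averaged 24.1 and 24.2 RPKM in SU-DHL-5 after DMSO and JQ1, and 6.64 and 8.23 RPKM in Toledo.

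RASA2 (chr3:141487049-141615344, plus strand), a member of the GAP1 branch, overlapped between treatments in both lines. It read 3.10 and 3.35 RPKM after DMSO and 3.33 and 3.49 RPKM after JQ1 in SU-DHL-5 (log2 ratio 0.08, interval -0.09 to 0.24). In Toledo the values were 3.72 and 5.07 RPKM after DMSO and 4.04 and 3.59 RPKM after JQ1, a log2 ratio of -0.20 (interval -0.34 to -0.05). The Toledo DMSO library 2 was the highest of the 8 libraries, and the ratio was 0.12 from the libraries numbered 1 and -0.49 from those numbered 2.

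RASA3 (chr13:113977783-114132620, minus strand), a GAP1 member that also acts on the RAS-related GTPase Rap1, differed between the lines more than between the treatments. In Toledo it read 3.81 and 4.32 RPKM after DMSO and 2.44 and 2.35 RPKM after JQ1. The JQ1 libraries were lower without overlap and the mean fell by 41.0%, with a log2 ratio of -0.74 (interval -0.95 to -0.57, 641 and 362 reads). In SU-DHL-5 it read 0.0819 and 0.114 RPKM after DMSO and 0.0649 and 0.0147 RPKM after JQ1, resting on 15 and 6 reads. The interval of that read ratio, -2.90 to 0.20, included 0. Between the DMSO samples RASA3 was 41.5-fold higher in Toledo (interval 24.8 to 74.0).

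RASA4 (chr7:102579646-102616758, minus strand), also called CAPRI and recruited to the membrane by calcium, had, among the genes of at least 0.1 RPKM, the lowest JQ1/DMSO ratio of the group in SU-DHL-5 and the next to lowest in Toledo. It read 1.05 and 1.13 RPKM after DMSO and 0.303 and 0.319 RPKM after JQ1 in SU-DHL-5. In Toledo it read 1.83 and 2.12 RPKM after DMSO and 0.737 and 0.795 RPKM after JQ1. The libraries of a treatment lay close together and the treatments far apart in both lines. The means were 3.50-fold lower in SU-DHL-5 (log2 ratio -1.53, interval of the reads -2.26 to -1.39, 214 and 58 reads) and 2.58-fold lower in Toledo (log2 ratio -1.26, interval -1.64 to -1.09, 401 and 149 reads). RASA4 starts at 2 places in the transcript table, and reads assigned to both were fewer after JQ1. The inner start, at base 102600297, had 126 reads after DMSO and 37 after JQ1 in SU-DHL-5, and 270 and 88 reads in Toledo. The outer start had 88 and 21 reads in SU-DHL-5. Its reads numbered 131 and 61 in Toledo.

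The value of RASA4 carries an uncertainty, as RASA4B on the same chromosome is a near-identical copy with which it can share reads. RASA4B held 18 reads after DMSO and 7 after JQ1 in SU-DHL-5, and 13 and 28 reads in Toledo, the opposite direction. With the copies summed, the log2 read ratio was -1.76 (interval -2.18 to -1.36) in SU-DHL-5 and -1.16 (interval -1.42 to -0.90) in Toledo, so the sum was lower after JQ1 in both lines.

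RASAL1 (chr12:113098819-113136239, minus strand), the other calcium-responsive member, was the highest RasGAP of DMSO-treated SU-DHL-5. It read 10.2 and 9.73 RPKM after DMSO and 8.20 and 8.13 RPKM after JQ1. These did not overlap and the mean fell by 18.2% (log2 ratio -0.29, interval -0.41 to -0.17). In Toledo the levels were 2.46 and 2.30 RPKM after DMSO and 1.70 and 2.25 RPKM after JQ1 (log2 ratio -0.26, interval -0.51 to -0.03). The Toledo difference came mostly from JQ1 library 1, as the libraries numbered 2 alone gave -0.03. Between the DMSO samples RASAL1 was 4.20-fold higher in SU-DHL-5 (interval 3.70 to 4.74).

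Among the SynGAP-like genes, RASAL3 (chr19:15451624-15464571, minus strand) is known from T cells and other blood cells. In Toledo it read 2.59 and 2.41 RPKM after DMSO and 0.691 and 1.05 RPKM after JQ1. The JQ1 libraries were lower without overlap, 2.87-fold by the means (log2 ratio -1.42, interval of the reads -1.88 to -1.18, 280 and 93 reads), and JQ1 library 1 was the lower of the pair. In SU-DHL-5 RASAL3 had 3 reads after DMSO and 0 after JQ1, so no ratio is given. The DMSO levels were 90.8-fold apart between the lines, with an interval from 30.5 to 439 that reflects those 3 reads.

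DAB2IP (chr9:121566883-121785530, plus strand), a scaffold that also binds apoptosis-signalling kinases, followed the same division between lines. It read 0.767 and 0.731 RPKM after DMSO and 0.481 and 0.299 RPKM after JQ1 in Toledo. The libraries did not overlap and the mean fell by 47.9% (log2 ratio -0.79, interval of the reads -1.31 to -0.58, 195 and 97 reads). In SU-DHL-5 it had 6 reads after DMSO and 0 after JQ1. Set at a floor of 3 reads over both JQ1 libraries, it would be 1.90-fold lower. The interval of the log2 read ratio, which also counts the error of the DMSO reads, had its upper end at -0.16. Between the DMSO samples it was 31.2-fold higher in Toledo (interval 14.1 to 86.4). RASAL2 (chr1:178093729-178479514, plus strand) was at the limit of detection in both lines, with 1 read after DMSO and 1 after JQ1 in SU-DHL-5 and with 4 and 0 reads in Toledo.

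The promoters of RASA3 and RASAL3, the genes with the widest gap between the lines above 1 RPKM in Toledo, are shown to compare their base composition. The sequences are RefSeq's for GRCh38.p14, from 250 to 51 bases before the annotated start, 5′ to 3′ on the gene's strand, with each CG dinucleotide in capitals. RASA3 (chr13:114132674-114132873) has 24 CG dinucleotides and 79% G or C, and RASAL3 (chr19:15464595-15464794) has 4 and 61%. A second RASA3 window (chr13:114078006-114078205), not shown, has 10 CG dinucleotides and 65% G or C. The RASA3 transcripts with reads begin near the window shown, at bases 114132620 and 114132592. The median over 35116 such windows was 8 CG dinucleotides and 57.5% G or C.
RASA3: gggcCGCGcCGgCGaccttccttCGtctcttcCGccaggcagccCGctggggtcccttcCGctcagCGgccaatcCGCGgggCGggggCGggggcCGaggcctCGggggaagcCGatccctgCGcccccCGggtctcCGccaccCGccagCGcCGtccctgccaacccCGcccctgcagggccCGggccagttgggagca
RASAL3: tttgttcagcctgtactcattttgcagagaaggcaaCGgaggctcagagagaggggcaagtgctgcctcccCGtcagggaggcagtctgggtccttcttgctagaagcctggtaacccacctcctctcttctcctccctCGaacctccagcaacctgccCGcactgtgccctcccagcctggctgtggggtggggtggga
The genes thus shared a line-restricted level but not the CG content of the windows shown.

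NF1 (chr17:31045488-31377677, plus strand) read 2.56 and 2.37 RPKM after DMSO and 2.29 and 1.93 RPKM after JQ1 in SU-DHL-5. In Toledo it read 1.63 and 2.42 RPKM after DMSO and 1.46 and 1.30 RPKM after JQ1. The JQ1 libraries were below both DMSO libraries in each line, with log2 ratios of -0.21 (interval -0.34 to -0.09) and -0.52 (interval -0.69 to -0.40), and the DMSO libraries of the lines overlapped. Toledo DMSO library 2 was 1.49-fold above library 1, and the ratio was -0.15 from the libraries numbered 1 and -0.85 from those numbered 2. Between these DMSO libraries the log2 ratio of 9380 genes moved with gene length (Spearman's rho 0.62, across genes of the same pair of libraries, which are not independent), and NF1 at 13705 bases is the longest gene of the group. The same rho was -0.27 between the Toledo JQ1 libraries and -0.09 and -0.05 in SU-DHL-5, and the part of length in the NF1 difference was not tested. Centred on genes of like length, NF1 had log2 ratios of -0.43 for SU-DHL-5 and -0.60 for Toledo. Introns of NF1 hold EVI2A and EVI2B on the other strand, and EVI2B averaged 0.806 and 0.153 RPKM in SU-DHL-5 after DMSO and JQ1 and 2.91 and 0.811 RPKM in Toledo.

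SPRED2 (chr2:65307442-65432637, minus strand), the partner that carries neurofibromin to the membrane, read 4.34 and 4.15 RPKM after DMSO and 2.70 and 2.49 RPKM after JQ1 in SU-DHL-5. The JQ1 libraries were lower without overlap and the mean fell by 38.9% (log2 ratio -0.69, interval -0.87 to -0.54, 815 and 476 reads). In Toledo SPRED2 read 0.905 and 1.01 RPKM after DMSO and 0.931 and 0.717 RPKM after JQ1. These libraries overlapped, with a log2 ratio of -0.19 (interval -0.52 to 0.10). Between the DMSO samples SPRED2 was 4.45-fold higher in SU-DHL-5 (interval 3.80 to 5.24).

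SPRED2 transcripts begin at 2 places 65725 bases apart, and these differed both between the lines and between the treatments. The outer start serves 4 of its 6 transcripts and the inner start the other 2. Their promoters, RefSeq's for GRCh38.p14 in the same window and lettering, are shown because reads from these starts differed in opposite directions in SU-DHL-5. The outer promoter (chr2:65432650-65432849, minus strand) has 17 CG dinucleotides and 65.5% G or C, and the inner promoter (chr2:65366829-65367028, minus strand) has 1 and 37.5%.
SPRED2 outer: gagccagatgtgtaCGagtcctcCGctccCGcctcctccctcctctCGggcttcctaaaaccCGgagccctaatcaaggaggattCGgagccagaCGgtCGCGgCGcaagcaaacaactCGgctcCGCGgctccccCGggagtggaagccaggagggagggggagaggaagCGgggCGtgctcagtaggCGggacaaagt
SPRED2 inner: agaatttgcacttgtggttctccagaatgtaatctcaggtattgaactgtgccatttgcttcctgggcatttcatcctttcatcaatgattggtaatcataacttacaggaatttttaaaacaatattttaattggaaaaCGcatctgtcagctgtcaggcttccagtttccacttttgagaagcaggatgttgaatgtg
The outer window is thus rich in CG dinucleotides and the inner window nearly free of them. The E-box CACGTG, a palindrome bound by MYC and related factors, was in neither, nor in any of the 12 windows found for 7 of the 10 genes. No window was found for RASA2, RASA4 and RASAL1. As 4.51% of all windows hold the motif, 12 windows are too few to read anything from its absence.

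In SU-DHL-5 the inner start held 329 of 401 SPRED2 reads in DMSO library 1 and 255 of 414 in DMSO library 2, or 82.0% (Clopper-Pearson interval 77.9% to 85.7%) and 61.6% (56.7% to 66.3%). After JQ1 it held 61 of 262 and 40 of 214 reads, or 23.3% (18.3% to 28.9%) and 18.7% (13.7% to 24.6%). The inner start was the larger source of reads in both DMSO libraries and the smaller in both JQ1 libraries. Its reads were 5.51-fold fewer after JQ1, with 584 and 101 reads and a log2 read ratio of -2.46 (interval -2.78 to -2.15). The outer start had 72 and 159 reads after DMSO and 201 and 174 after JQ1, a log2 read ratio of 0.77 (interval 0.53 to 1.01). That of the outer start depended on the DMSO library, being 0.36 without library 1 and 1.39 without library 2, whereas the inner start ranged from -2.71 to -2.21 with any of the 4 libraries left out. The lower SPRED2 level of SU-DHL-5 after JQ1 was therefore made up, in the authors' assignment of reads to transcripts, of fewer reads at the inner start and more at the outer start.

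**Figure D4:**
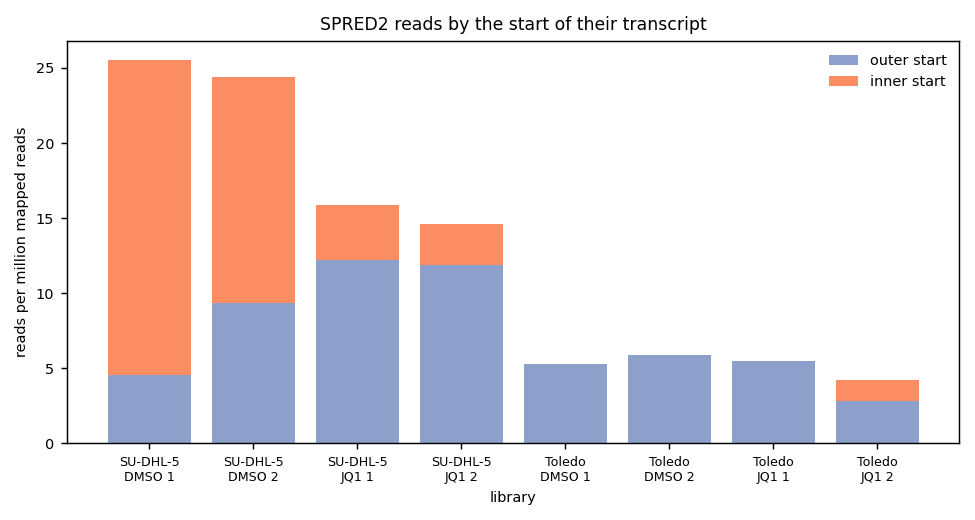
SPRED2 reads per 1000000 mapped reads (y axis) in each library (x axis), stacked by the start of the transcript they were assigned to. The inner start (orange) is the larger part of both SU-DHL-5 DMSO bars and the smaller part of both SU-DHL-5 JQ1 bars, and in Toledo it appears in JQ1 library 2 alone.

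In Toledo the inner start had 0 of 94 and 0 of 96 reads after DMSO, which allows a share of up to 3.19% and 3.13% by the floor of 3 reads, and up to 3.85% and 3.77% by the Clopper-Pearson interval. After JQ1 it had 0 of 89 reads in library 1 and 22 of 68 in library 2. The Toledo JQ1 libraries thus disagree, and the assignment of reads to transcripts varied between libraries of the same sample more than gene totals did. For main transcripts of the 10 genes, those with at least 10% of the gene in some sample, the libraries of a sample were more than 1.5-fold apart in 26 of 60 pairs with at least 30 reads, against 2 of 30 pairs for gene totals. The difference between the SU-DHL-5 treatments at the inner start was larger than that between the DMSO libraries, and each of the inner transcripts taken alone was lower after JQ1, with log2 read ratios of -2.89 and -1.60.

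The order of levels followed from these values. In SU-DHL-5 after DMSO it was RASAL1, RASA1, SPRED2, RASA2, NF1, RASA4 and RASA3, with no overlap of libraries between neighbours, and then RASAL3 and DAB2IP, which overlapped, and RASAL2. After JQ1 it was RASA1, RASAL1, RASA2, SPRED2, NF1, RASA4 and RASA3, again without overlap, and RASAL2, RASAL3 and DAB2IP had 1, 0 and 0 reads. In Toledo after DMSO, RASA1, RASA2 and RASA3 overlapped from neighbour to neighbour, as did RASAL3, RASAL1, NF1 and RASA4, and below them came SPRED2, DAB2IP and RASAL2. After JQ1 the Toledo order was RASA1, RASA2, RASA3, RASAL1 and NF1, followed by RASAL3, SPRED2 and RASA4, which overlapped, and by DAB2IP and RASAL2.

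For the 2 genes with the highest mean, the patterns over the 4 samples most like theirs were sought among 8162 genes of at least 1 RPKM in each sample, by the distance between centred log2 levels. Nearest to RASA1 were GOLIM4 (distance 0.037), KIAA1586 (0.040) and MAT2B (0.041). Nearest to RASAL1 were GPR160 (0.13), ARPC2 (0.16) and DDB2 (0.22). With 4 points such likeness is a description only.

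Around the RasGAPs, 31 further genes of the pathway were listed. In SU-DHL-5, 26 passed the filter, with 10 below and 12 above DMSO, and in Toledo 28 passed, with 9 below and 9 above. Among all SU-DHL-5 genes passing it, 39.5% were below DMSO and 39.3% above. The Toledo shares over all genes were 44.5% below and 27.7% above. Neither these counts nor those of the single lists that follow were tested against such shares. Among other genes of RasGAP-like domains and neurofibromin partners, 4 of 6 were below and 2 above in SU-DHL-5 and 3 of 7 below and 2 above in Toledo. IQGAP1, a scaffold with a GAP-related domain, had the highest log2 ratio of that list among genes averaging 1 RPKM or more over the line, 0.38 for SU-DHL-5 and 0.48 for Toledo. The lowest were SPRED1, the sister of SPRED2, at -0.14 in SU-DHL-5 and IQGAP2 at -1.17 in Toledo.

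The SHOC2 phosphatase complex and adaptors counted 1 of 7 below and 4 above in SU-DHL-5, and 1 of 9 below and 1 above in Toledo. At 1 RPKM or more they ran from LZTR1 at -0.10 to SHOC2 at 0.40 in SU-DHL-5 and from CBL at -0.11 to GRB2 at 0.18 in Toledo. The kinases of the RAF, MEK and ERK tiers counted 2 of 8 below and 5 above in SU-DHL-5 and 3 of 8 below and 4 above in Toledo. MAPK3, which encodes ERK1, was the lowest of them in both lines. It read 21.6 and 24.1 RPKM after DMSO and 7.09 and 6.33 RPKM after JQ1 in SU-DHL-5 (log2 ratio -1.75). In Toledo MAPK3 read 23.2 and 21.8 RPKM after DMSO and 4.39 and 5.001 RPKM after JQ1, a log2 ratio of -2.24. The highest log2 ratio of the list at 1 RPKM or more in Toledo was 0.44 for MAP2K1, which encodes MEK1.

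A further list held docking proteins of the DOK family, G3BP1 and EPHB4, and binding to RASA1 was not measured for any of them. Of these, 3 of 5 were below and 1 above in SU-DHL-5 and 2 of 4 below and 2 above in Toledo. DOK3, a docking protein of B cell receptor signalling, was the lowest of those at 1 RPKM or more. It read 25.7 and 22.1 RPKM after DMSO and 4.52 and 4.97 RPKM after JQ1 in SU-DHL-5 (log2 ratio -2.31). In Toledo it read 5.74 and 5.85 RPKM after DMSO and 0.753 and 0.777 RPKM after JQ1 (log2 ratio -2.77). G3BP1, a stress-granule protein that binds the SH3 domain of RASA1, was the highest at 1 RPKM or more, 0.32 in SU-DHL-5 and 0.28 in Toledo. Among genes averaging less over the 4 libraries of a line, DOK2 lay outside this order in SU-DHL-5 with 74 reads after DMSO and 1 after JQ1, and EPHB4 in Toledo with 47 and 85 reads, both named after their values were seen.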

How the data were processed

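Both cell lines were treated with JQ1 or DMSO and sequenced by the authors on a stranded mRNA library kit, with 1 sample per line and treatment and 2 libraries per sample. The values deposited by the authors are RPKM for genes and, in a second table, transcripts, normalised to feature length and to the mapped reads of each library. The submitters' processing notes name CASAVA 2.0 and the builds GRCh38 and hg38, and the aligner, the counter, its strand setting and the annotation are not given in the sources used here.

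Libraries of a sample were averaged and counted as n = 1, since nothing says that they came from separate cultures. Mapped totals were recovered from short genes as the number that made RPKM values whole reads most often, with a median of 16252335. Each feature's length was then the smallest from 100 to 40000 bases giving whole reads, within 0.0001 reads or, relative to the value, 1e-07 (0.0003 below 0.01 RPKM). Whole reads resulted for 14942 of the 14944 genes above 0 and 44036 of the 44041 transcripts above 0, and for genes with few reads it can be too small by a common factor. The recovered reads served for counting intervals (95%, exact binomial) and floors (3 reads), which cover counting error only.

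No test was made within a line. Over both lines, limma 3.58.1 in R 4.3.3 was fitted to log2(RPKM + 0.1) of the 4 sample means with line and treatment as terms and a trended prior, for 11623 genes averaging at least 0.1 RPKM, which leaves 1 residual degree of freedom, with Benjamini-Hochberg adjustment. No count model was fitted. Log2 ratios used means plus 0.1 RPKM, and counts used genes of at least 0.1 RPKM. Transcripts whose starts lay within 1000 bases were grouped. Scripts were tested on simulated data and ran in Python 3.11.15 (pandas 2.3.3, numpy 2.4.6, matplotlib 3.10.9, scipy 1.17.1). All 10 genes are named. Other pathway genes are named where highest or lowest in their list at 1 RPKM or more, and the 3 patterns nearest to the 2 highest genes are named, except for 1 pathway gene that, like 1 of the cell type markers, is not reported here. The genes and lists were chosen with earlier results of these data known.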

Additional observations from a re-analysis of the deposited data

How the results depend on the processing

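The replicate block here is the cell line, which pairs a DMSO with a JQ1 sample. With it, 1 gene (RASA4) passed in the fit over both lines, and 0 passed with no replicate block, where the difference between the lines enters the residual. That fit without the block called 0 of all genes by limma, with 246 lower and 89 higher at an unadjusted p under 0.05. Depth limits RASAL2 in both lines and RASA3, RASAL3 and DAB2IP in SU-DHL-5, each with at most 15 reads per treatment.

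The median log2 ratio of the 10 genes kept its sign under every alternative tried. In SU-DHL-5 it was -0.50 with 0.01 RPKM added, -0.059 with 1 RPKM added and -0.20 from the libraries numbered 1. It was -0.39 centred on transcript length and -0.21 for genes of at least 1 RPKM. In Toledo it was -0.66 with 0.01 RPKM added and -0.67 from the libraries numbered 2. Without a filter on low values, 7 genes were below DMSO in SU-DHL-5, the gain being genes under 0.1 RPKM. In Toledo 1 gene, RASA1, was above DMSO after scaling to the median ratio of 0.963, which also left 5 genes below DMSO, RASAL1 being lost. RASA1 was above without DMSO library 2 as well. Without DMSO library 1 of Toledo, 8 genes were below, RASA2 and SPRED2 being added. With a DMSO library left out, non-overlap is easier to reach for any gene. No share over all genes is given for the scaled run or for the runs without a library or without the filter. The cause of these shifts was not tested. For single genes and the 2 SPRED2 starts in SU-DHL-5, 118 of 138 values stayed within their spread and 20 moved. None changed sign where libraries did not overlap. RASAL2 and RASAL3 in SU-DHL-5 were not among these values. The runs without a Toledo DMSO library and of single SPRED2 transcripts or libraries, and the fit over both lines, were chosen after seeing the data.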

Other observations

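Genes that share their locus with a RasGAP did not all follow it. EVI2A, within an intron of NF1, read 0.677 and 0.841 RPKM after DMSO and 0.101 and 0.0682 RPKM after JQ1 in SU-DHL-5. In Toledo EVI2A read 1.90 and 1.72 RPKM after DMSO and 2.61 and 2.29 RPKM after JQ1, the opposite direction, whereas NF1 was below DMSO in both lines. EVI2B, in the same intron, was lower after JQ1 in both lines, the log2 ratio being -1.84 for SU-DHL-5 and -1.72 for Toledo. The JQ1 and DMSO libraries of these genes did not overlap in either line.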
